A study of Mus musculus with 2 samples.

Results

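The genes described here are those of the tumour necrosis factor (TNF) locus with a set of ligands, receptors and targets of the same family: Tnf, Lta, Ltb, Tnfsf9, Tnfsf10, Tnfrsf1a, Tnfrsf1b, Cd40, Fas and Tnfaip2. They were chosen by symbol, all 10 symbols matched, and they are 10 of 55536 annotated genes in the tables. RNA bound to chromatin was sequenced after depletion of ribosomal RNA from bone-marrow-derived macrophages of C57BL/6J mice, phagocytes grown in culture from marrow. Both libraries belong to 1 group. The cells had 100 ng/ml lipid A, the toxic lipid anchor of bacterial endotoxin and a ligand of TLR4, for 12 h, then a washout of 12 h, then 100 ng/ml lipid A again for 75 min. Replicate 1 was made from 250 ng of RNA and replicate 2 from 500 ng, the donor entry of both is the same, and separate cultures are not spelled out, so an SD (n = 2) may be technical. Cells without lipid A, or without the second dose, were not analysed here, so every value is a level in restimulated cells and none is a response to lipid A.

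TNF is made by macrophages as a membrane protein that is shed as a soluble trimer, and it is a classic product of Toll-like receptor signalling through NF-kB. It binds TNF receptor 1 (Tnfrsf1a), which carries a death domain and is expressed in most cell types, and TNF receptor 2 (Tnfrsf1b), which is found mainly on immune and endothelial cells. Lymphotoxin alpha (Lta) and beta (Ltb) lie beside Tnf in the genome and are best known as lymphocyte products. Chromatin-bound RNA is rich in transcripts still being made, so a level here is closer to synthesis than a level in whole cells, though the tables do not separate precursor from mature RNA.

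The libraries held 18445009 and 17686824 expected counts. Levels are given in TPM, the share of transcripts after division by length, which allows genes of unlike length to be compared. The length used for a gene depends on how its reads are split over its transcripts, so comparisons between genes rest on that split. The levels come from the alignment-based program unless the alignment-free program, a second quantification deposited for the same reads, is named. The macrophage label was checked with marker genes: all 10 macrophage markers reached 1 TPM in both libraries, with a summed level of 1281 and 913 TPM. None of 28 markers of B cells, T and NK cells, dendritic cells, neutrophils and stromal cells did so. The B cell markers summed to 3 counts in replicate 1 and 1 in replicate 2, with Cd79a, Pax5 and Blk at 0. The T and NK cell markers also summed to 3 and 1, with Cd3e, Cd3g, Trac, Ncr1 and Gzma at 0. By the alignment-free program 8 of the 28 reached 1 TPM in both libraries, 1 of B cells and 2 of T and NK cells among them, the highest being Cd3d at 15.5 and 20.1 TPM. In bulk samples such as these, fewer cells of a type and less RNA per cell cannot be told apart.

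The 10 genes spanned more than 3 orders of magnitude. Of the 10, 8 reached 1 TPM in both libraries, where 40.1% of 22028 protein-coding genes did, and 4 reached 100 TPM in both, where 2.04% of protein-coding genes did. These shares are a description, since the genes were picked with earlier results of these data known. The median level over the 10 genes was 57.4 ± 34.7 TPM (SD of the library medians, n = 2), and the median over all protein-coding genes was 0.290 TPM. By mean level the order was Tnfaip2, Cd40, Tnf, Tnfrsf1b, Tnfsf9, Fas, Tnfrsf1a, Ltb, Tnfsf10 and Lta. In 8 of the 9 neighbouring pairs of that order the ranges of the libraries did not overlap, and Cd40 and Tnf were the pair whose ranges did. By means, Fas and Tnfrsf1a were the closest of the separated pairs, with a ratio of 1.09. The ranges of Ltb and Tnfsf10 nearly met, at 1.89 and 1.87 TPM in replicate 1, where Ltb had only 34 counts. The means of the alignment-free program gave all 9 pairs in the same order. By that program the ranges of Ltb (1.75 and 2.23 TPM) and Tnfsf10 (2.21 and 1.41 TPM) overlapped, with Tnfsf10 higher in replicate 1 and Ltb higher in replicate 2.

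**Figure D1:**
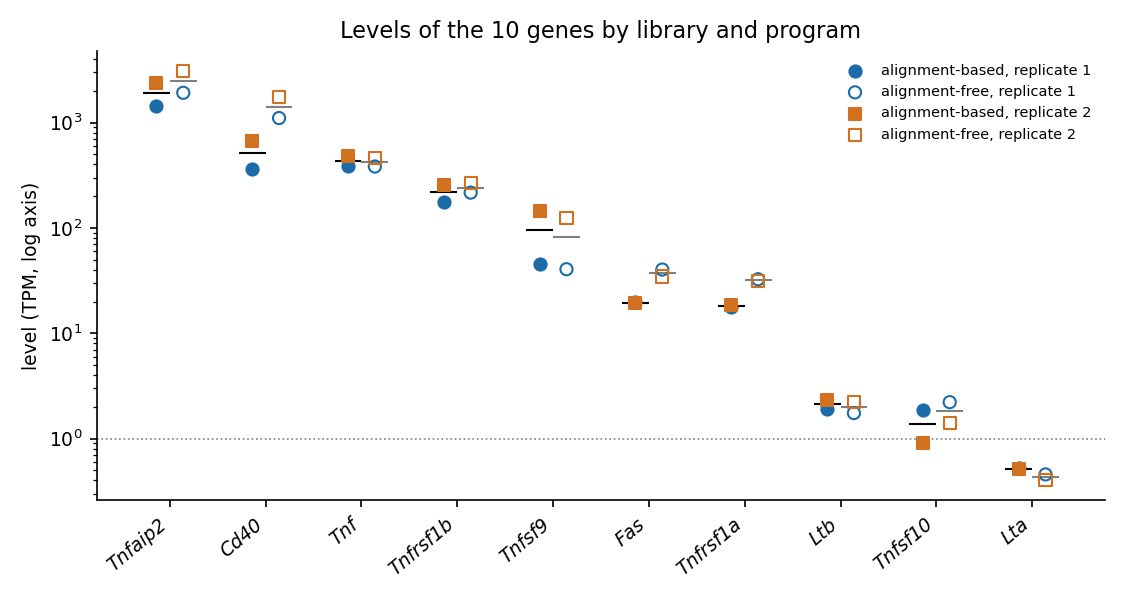
Level of each gene in TPM (log axis) in replicate 1 (circles) and replicate 2 (squares), by the alignment-based program (filled) and the alignment-free program (open), with short lines at the means and a dotted line at 1 TPM. The genes fall from Tnfaip2 at 1421 and 2385 TPM to Lta at 0.52 and 0.51 TPM, and Cd40 shows the widest gap between the programs.

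The locus itself came first. On chromosome 17 of mm10, Ltb (35194439 to 35196320, plus strand), Tnf (35199381 to 35202007, minus strand) and Lta (35203165 to 35205351, minus strand) follow each other. Lta and Tnf are read in the same direction and 1157 bases separate the end of Lta from the start of Tnf, while Ltb points towards Tnf with 3060 bases between their ends. The bases directly upstream of each annotated gene are printed because these 3 neighbours include the lowest gene of the set and one of the highest. They are RefSeq sequences of GRCm38.p6, the same assembly as mm10, 5′ to 3′ on the strand of the gene. Capitals mark TATAAA, the core of a TATA box, and the NF-kB consensus, each searched on both strands, with no overlap between the motifs here.
Tnf (chr17:35202008-35202257, minus strand): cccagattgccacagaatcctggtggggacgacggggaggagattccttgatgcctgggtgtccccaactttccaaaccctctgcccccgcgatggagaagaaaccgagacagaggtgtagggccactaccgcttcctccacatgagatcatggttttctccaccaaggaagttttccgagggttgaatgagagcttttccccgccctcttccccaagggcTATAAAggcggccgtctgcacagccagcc
Lta (chr17:35205352-35205601, minus strand): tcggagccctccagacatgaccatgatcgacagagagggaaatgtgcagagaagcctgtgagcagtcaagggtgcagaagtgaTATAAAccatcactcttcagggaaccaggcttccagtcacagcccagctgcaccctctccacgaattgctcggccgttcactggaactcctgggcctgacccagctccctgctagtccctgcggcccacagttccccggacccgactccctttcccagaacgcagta
Ltb (chr17:35194257-35194438, plus strand): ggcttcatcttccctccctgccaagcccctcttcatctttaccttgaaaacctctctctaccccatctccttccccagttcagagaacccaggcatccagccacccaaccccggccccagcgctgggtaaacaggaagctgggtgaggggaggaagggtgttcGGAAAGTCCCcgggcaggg

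The TATAAA match of Tnf began 29 bases before its start site, and that of Lta 167 bases before its own. In windows of 300 bases, 250 before and 50 after the RefSeq start site, TATAAA was present in 13.6% of 32851 promoters. The NF-kB consensus was present in 8.46% of promoters and in 2 of the 8 genes here whose promoter is in the table, Ltb and Tnfaip2. Both matches fit the consensus on the strand opposite to the gene. That in Ltb reads GGAAAGTCCC on the strand of the gene and begins 87 bases before the RefSeq start site. The match in Tnfaip2 begins 24 bases before its start site. No match to these letters was found in the Tnf window. TGANTCA, the core bound by AP-1 factors, was in 7.81% of promoters and here in Fas. These are matches of letters in 1 window per gene, and binding was not measured.

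The RNA of Tnf was at a high level and that of Lta and Ltb was not. Tnf, the founding ligand of the family, had 387.82 TPM in replicate 1 and 483.57 in replicate 2 from 9186 and 10471 counts, a mean of 436 ± 67.7 TPM (n = 2), which was rank 46 among protein-coding genes. Lta had 0.52 and 0.51 TPM from 10 and 9 counts, with exact 95% Poisson intervals of 4.80 to 18.4 and 4.12 to 17.1 counts that cover counting error only. Ltb, whose product anchors lymphotoxin at the membrane, had 1.89 and 2.34 TPM from 34 and 39 counts. The ranges of the 3 genes were separate, and their order was the same in each library and by each program. The level of Tnf was 746 times that of Lta in replicate 1 and 948 times in replicate 2, or 838 and 1133 times by the alignment-free program. It was 205 and 207 times that of Ltb, with 219 and 205 times by the alignment-free program. The few Lta counts limit the precision of the first ratio.

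Genes farther out lay between these extremes. The 4 nearest protein-coding genes on the side of Ltb had means between 18.4 TPM (Lst1) and 120.4 TPM (Prrc2a), and the 4 on the side of Lta between 3.79 TPM (Atp6v1g2) and 140.1 TPM (Ddx39b). In TPM all 8 exceeded Ltb and Lta in both libraries, and none reached Tnf. By counts Gm16181 (16 and 37) lay below Ltb (34 and 39) in both libraries. Lst1, with 33 counts in replicate 2, lay below Ltb there. The only other annotated entries between the start of Ltb and the start of Lta are the miRNA genes Mir6973a and Mir6974, which had 0 counts in both libraries by the alignment-based program. Atp6v1g2 and Gm16181 each overlap Nfkbil1 on the opposite strand, and the strand setting of the counting is unknown, so their levels are uncertain. Aif1 and Lst1, the nearest genes beyond Ltb, were lower in replicate 2 with log2 ratios of -0.97 each. Gm16181 (1.34), Nfkbil1 (0.63), Ltb (0.33) and Tnf (0.32) were higher, though the counting interval of Ltb (-0.37 to 1.04) includes 0. The remaining neighbours lay between -0.26 (Prrc2a) and 0.07 (Atp6v1g2).

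**Figure D2:**
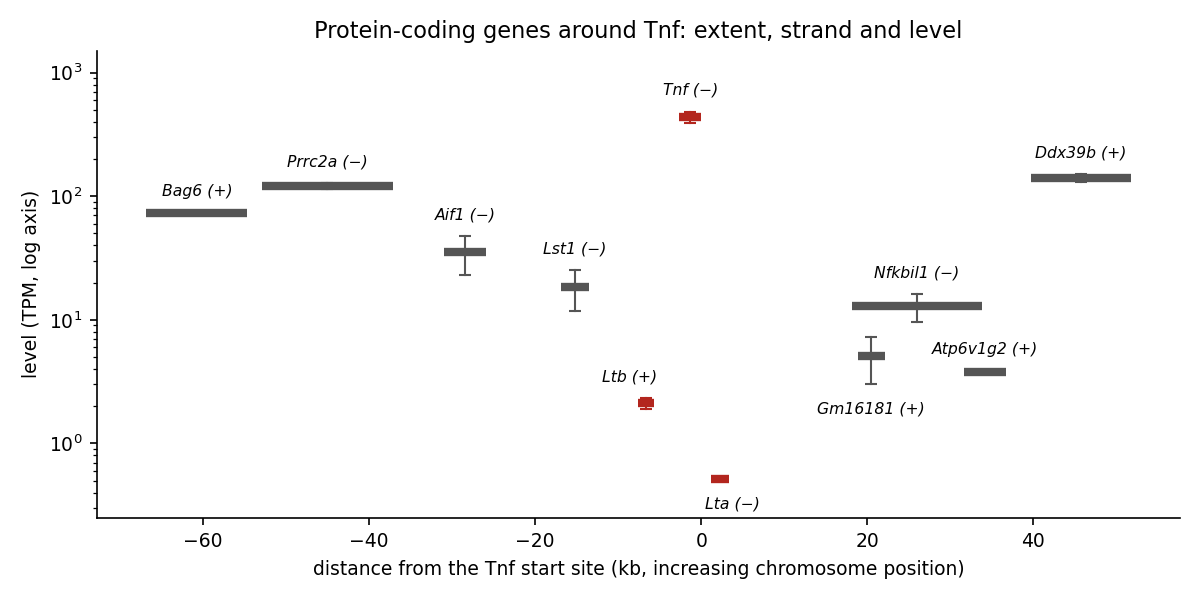
Genes around Tnf, drawn to scale by distance from the Tnf start site in kb with the strand in brackets. Bar height is the mean level in TPM (log axis) and the thin lines join the values of the libraries. Tnf (436 TPM) stands above all 10 other genes, and Lta (0.515 TPM) and Ltb (2.12 TPM), in red with it, are the lowest.

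Transcript structure set Tnf apart from the more complex genes of the set. Tnf has 2 annotated protein-coding transcripts, and Tnf-202 lacks the third of the 4 exons of Tnf-201 and the last bases of its 3′ UTR. All Tnf counts of the alignment-based program went to Tnf-201, and the alignment-free program gave Tnf-202 0 and 4.73 counts. Tnf-201 has 177 bases that Tnf-202 lacks, and the exon, 48 of them and all coding, is shown because it is the coding difference between the forms.
Tnf-201 exon 3 (chr17:35200858-35200905, minus strand): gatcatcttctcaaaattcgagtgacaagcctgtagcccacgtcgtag
The last exon also holds the AU-rich element through which Tnf mRNA is known to be destabilised by tristetraprolin. The 30 bases of the 3′ UTR with the most ATTTA cores, 5 of them, are shown with those cores in capitals.
Tnf AU-rich element (chr17:35199679-35199708, minus strand): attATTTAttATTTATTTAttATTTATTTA
Tnf-201 had 5 overlapping TTATTTATT nonamers in its 3′ UTR and Lta-201 had 1. The first transcripts (201) of the other 8 genes had none, against 8.54% of 19938 genes with a 3′ UTR of at least 100 bases in any protein-coding transcript. The pair of genes with the nonamer thus included the third highest and the lowest of the set in level, and decay was not measured.

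The protein-coding genes most like Tnf in level, by the summed absolute difference of log2(TPM + 0.1) over 4 values (2 libraries by 2 programs), were Nlrp3 (0.187), Iqgap1 (0.257) and Mndal (0.287). Nlrp3, the inflammasome sensor, had 375.53 and 480.76 TPM. Likeness over 2 libraries describes level only.

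The TNF receptors followed, with receptor 2 far above receptor 1. Tnfrsf1b (chromosome 4, 145213463 to 145246870) had 177.35 TPM in replicate 1 and 257.2 in replicate 2, from 10789 and 14236 counts, a mean of 217 ± 56.5 TPM. Tnfrsf1a (chromosome 6, 125349362 to 125362484) had 17.65 and 18.33 TPM from 449 and 431 counts, a mean of 18.0 ± 0.481. The ranges of the receptors did not overlap, and the ratio of Tnfrsf1b to Tnfrsf1a was 12.0 ± 2.82 (10.05 and 14.03 in the libraries). The alignment-free program gave a smaller ratio in each library, 6.65 and 8.44, because it put Tnfrsf1a at 32.5 and 31.3 TPM. Tnf stood 2.03 ± 0.217 times above Tnfrsf1b.

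The receptors also differed in their transcripts. Tnfrsf1b-201, the form of 10 exons, took 99.8 ± 0.299% of the TPM of Tnfrsf1b, and by the alignment-free program 83.2% and 92.3%. Of Tnfrsf1a, Tnfrsf1a-201 took 69.6 ± 0.919%, the shorter protein-coding form Tnfrsf1a-206 16.6 ± 1.41% and the retained-intron form Tnfrsf1a-205 11.9 ± 3.26%. The alignment-free program moved Tnfrsf1a-201 down to 35.6% and raised Tnfrsf1a-202, a form annotated for nonsense-mediated decay, from 1.91% to 39.1%. The isoform shares of Tnfrsf1a thus differed between the programs, while its level stayed below that of Tnfrsf1b by both.

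Of the other receptors of the set, Cd40 had the higher level and Fas was close to Tnfrsf1a. CD40 is the costimulatory receptor through which T cells license macrophages, and Fas is a death receptor. Cd40 (chromosome 2, 165055627 to 165072948) had 363.75 and 666.86 TPM from 5859 and 10210 counts, a mean of 515 ± 214 TPM and rank 36 among protein-coding genes. Its replicates lay on either side of those of Tnf. By counts Tnf was higher in both libraries, with 9186 and 10471. The length that the TPM divides by was 938 and 990 bases for Cd40, against 1380 and 1400 for Tnf. Fas (chromosome 19, 34290666 to 34327772) had 19.95 and 19.17 TPM from 396 and 331 counts, a mean of 19.6 ± 0.552. Cd40 exceeded Fas 18.2 times in replicate 1 and 34.8 times in replicate 2.

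Cd40 depended more on the program than any other gene of the set. The alignment-free program gave it 1104 and 1733 TPM, 3.03 and 2.60 times the alignment-based values. Over protein-coding genes at 1 TPM in both libraries the median of that ratio of means was 1.27, and 17.5% of 8829 genes were raised over 2-fold. Of the 8 genes here at 1 TPM in both libraries, Cd40 alone passed 2-fold (2.75 for the means), with Fas at 1.91 and Tnfrsf1a at 1.77. None was over 2-fold lower, where 0.374% of the 8829 genes were. At the other end, Tnfsf9 had a ratio of 0.864, Ltb 0.940 and Tnf 0.965.

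Much of the excess in Cd40 sat on short transcripts. Cd40-204, of 391 bases, had 3.40 and 3.26 counts by the alignment-based program and 1247 and 1872 by the alignment-free one. Cd40-203, of 668 bases, had 70.7 and 98.7 against 1705 and 2652 counts, and Cd40-206, of 348 bases, 45.9 and 87.3 against 917 and 1116. The retained-intron form Cd40-205, of 545 bases, gained the most counts, with 742 and 1192 against 3476.5 and 4705. The longest forms differed by smaller ratios in replicate 1, with Cd40-201 at 2344 against 3047 counts and Cd40-202 at 2257 against 2972. Every Cd40 transcript had more counts by the alignment-free program, which also assigned more counts in total, 32830001 and 30388561.

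By the alignment-based program the TPM of Cd40 was split between 3 main forms. The retained-intron form Cd40-205 took 39.5 ± 2.62%, Cd40-202 30.9 ± 5.43% and the full-length form Cd40-201 13.0 ± 1.13%. Cd40-205 runs 131 bases into an intron (chr2:165066565-165066695). Of counts rather than TPM, Cd40-202 had 2257 and 4861, Cd40-201 2344 and 3450, and Cd40-205 742 and 1192, so the length correction puts the short Cd40-205 first. Cd40-202 lacks exon 7 of the 9 exons of Cd40-201, 87 coding bases that encode the membrane-spanning stretch of the receptor. They are printed because the leading coding forms differ in them.
Cd40-201 exon 7 (chr2:165069629-165069715, plus strand): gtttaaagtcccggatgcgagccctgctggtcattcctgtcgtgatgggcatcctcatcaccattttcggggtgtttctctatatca
Cd40-202 has no base of its own, so its reads are told apart by the junction over this exon and by its shorter end. The deposited posterior SD of its count was 63.5 and 71.4. Cd40-201 has 1294 bases of its own at its 3′ end (chr2:165071655-165072948), so the split is not a measure of exon 7 alone. By the alignment-free program Cd40-202 took 8.55% and Cd40-201 3.54% of TPM, with Cd40-205 at 32.5% and Cd40-204 at 20.6% in replicate 1 and 21.5% in replicate 2.

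Fas was mostly the full-length Fas-201, with 79.7 ± 1.27% of TPM. By the alignment-free program that share was 31.0%, and the processed transcript Fas-205 had 27.6% against 3.62%.

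Tnfsf9 and Tnfsf10 are ligands that act on T cells and on cells carrying death receptors. Tnfsf9 (chromosome 17, 57105325 to 57107757), the ligand of 4-1BB, had 45.77 TPM in replicate 1 and 144.74 in replicate 2, from 810 and 2353 counts. Tnfsf10 (chromosome 3, 27317028 to 27342427), which encodes TRAIL, had 1.87 and 0.9 TPM from 152 and 66 counts. Tnfsf9 was high in replicate 2 and Tnfsf10 in replicate 1, so the ratio between them was 24.5 in replicate 1 and 160.8 in replicate 2. All counts of Tnfsf9 fell on its single transcript, and all of Tnfsf10 on Tnfsf10-201.

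Tnfaip2, a gene named for its induction by TNF, was the highest of the set. Tnfaip2 (chromosome 12, 111442469 to 111455018) had 1421.3 and 2385.25 TPM from 50501 and 76691 counts, a mean of 1903 ± 682 TPM and rank 4 among protein-coding genes, and 2496 ± 818 TPM by the alignment-free program. Its values lay above every other gene of the set in both libraries. Several transcripts carried this level. Tnfaip2-201, the full-length form, took 30.9 ± 1.91% of TPM, the short protein-coding form Tnfaip2-205 of 398 bases 24.4 ± 3.31% and the retained-intron form Tnfaip2-207 21.4 ± 0.180%. By counts Tnfaip2-205 had 806 and 1642, Tnfaip2-201 25235 and 41882, and Tnfaip2-207 19091 and 28685. The 609 bases that Tnfaip2-207 shares with no other form lie in 2 introns, of 118 bases (chr12:111448370-111448487) and 491 bases (chr12:111448740-111449230). By the alignment-free program Tnfaip2-205 led with 47.9%, ahead of Tnfaip2-201 at 15.5%.

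Transcripts annotated as protein coding held most of the TPM in the median gene of the set. They did not in Cd40 (46.6%) or Ltb (35.0%). The median share over the 10 genes was 93.6%, against 54.7% over 8821 protein-coding genes at 1 TPM in both libraries. Tnf, Tnfsf9, Lta and Tnfsf10 have only protein-coding forms annotated, so their share of 100% was fixed by the annotation. Of these, Lta and Tnfsf10 did not reach 1 TPM in both libraries. The sets are thus unlike, and counting Lta and Tnfsf10 raises the median of the 10 genes by both programs. Only 4 of the 10 genes have an annotated retained-intron form, Tnfaip2, Cd40, Tnfrsf1a and Ltb, while 5783 of those 8821 genes have one, and reads can be assigned to annotated forms only. Among these 4 the retained-intron share was 65.0 ± 9.99% in Ltb, 40.2 ± 2.75% in Tnfaip2, 39.5 ± 2.62% in Cd40 and 11.9 ± 3.26% in Tnfrsf1a, where the median over all genes with such a form was 45.7%. The Ltb share rests on 21.7 and 30.7 counts of Ltb-202, which keeps the intron of 338 bases at chr17:35195366-35195703. Reads from unspliced precursor may be assigned to such forms as well, and precursor and retained introns cannot be told apart here. The median protein-coding share fell to 76.1% by the alignment-free program, where Tnfrsf1a had 43.5% and Fas 51.7%, and the same share over all genes was 46.9%.

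**Figure D3:**
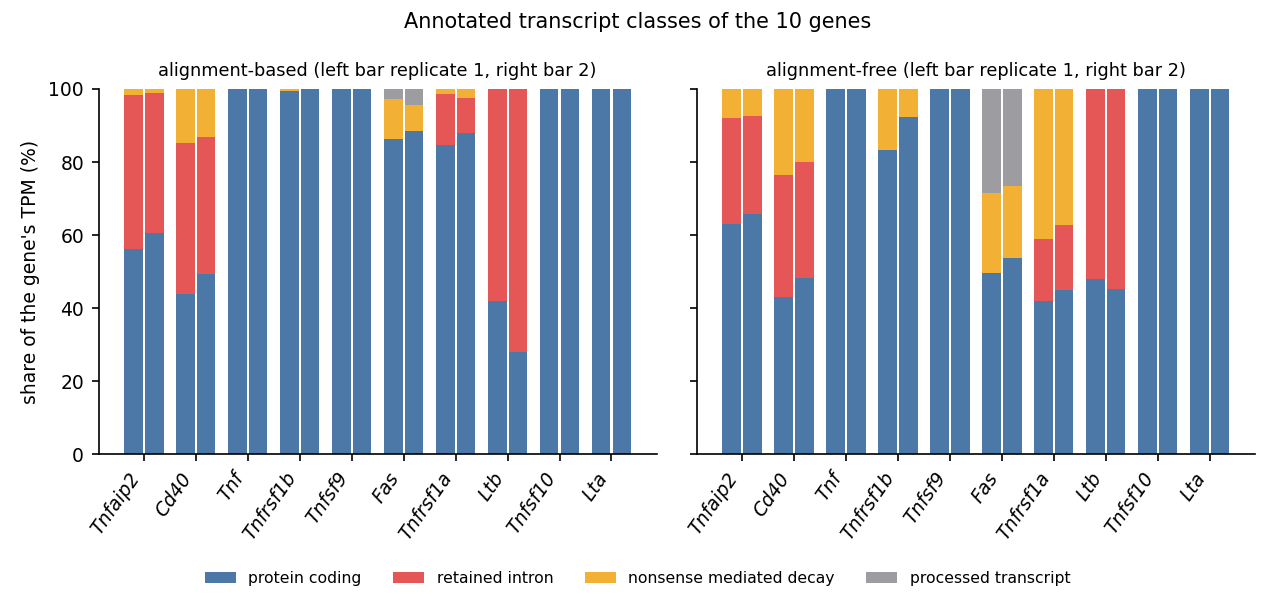
Share of the TPM of each gene (%) on annotated transcript classes, with a left bar for replicate 1 and a right bar for replicate 2, by the alignment-based program (left panel) and the alignment-free program (right panel). Tnf, Lta, Tnfsf9 and Tnfsf10, with only protein-coding forms annotated, are protein coding throughout. Ltb, Tnfaip2 and Cd40 hold large retained-intron shares by both programs, and Fas and Tnfrsf1a change with the program.

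The libraries are of 1 condition, so a ratio of replicate 2 over replicate 1 shows the spread of each gene and nothing about lipid A. With counts scaled by TMM (trimmed mean of M-values), 966 of the 13247 genes that had 10 counts or more in both libraries differed over 2-fold, which is 7.29% (4.09% higher and 3.2% lower in replicate 2). Of the 9 genes of the set that met this minimum, Tnfsf9 was over 2-fold higher and Tnfsf10 over 2-fold lower in replicate 2. With 1 library on each side there is no test, and intervals cover counting error only. Tnfsf9 differed 3.19-fold (exact binomial 95% interval 2.94 to 3.45), a log2 ratio of 1.67, and 1.56 by the alignment-free program. Tnfsf10 was 2.10-fold lower (1.56 to 2.85), a log2 ratio of -1.07, but -0.71 by the alignment-free program, which ends its place past 2-fold.

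The other genes stayed within 2-fold. Cd40 had a log2 ratio of 0.93 (interval 0.89 to 0.98), Tnfaip2 0.74, Tnfrsf1b 0.53, Ltb 0.33 and Tnf 0.32. Tnfrsf1a at 0.07 and Fas at -0.13 had counting intervals that include 0, as did Ltb. The counting intervals of Cd40, Tnfaip2, Tnfrsf1b and Tnf exclude 0, and the central 90% of all 13247 genes spans -0.87 to 0.92. Cd40 lies just outside that span. Over the 7386 genes with 100 counts in each library the span is narrower, -0.67 to 0.79, with Cd40 outside it and Tnfaip2 inside. By the alignment-free program the log2 ratio of Cd40 was 0.70. The median over the 9 genes was 0.33, against 0.00 over all genes with 10 counts. Macrophage markers moved too: 3 of 10 were over 2-fold lower in replicate 2 (Adgre1, Itgam and Fcgr1), the median of the 10 was -0.47, and the amount of starting RNA differed with the library. Their part in the ratios was not tested.

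**Figure D4:**
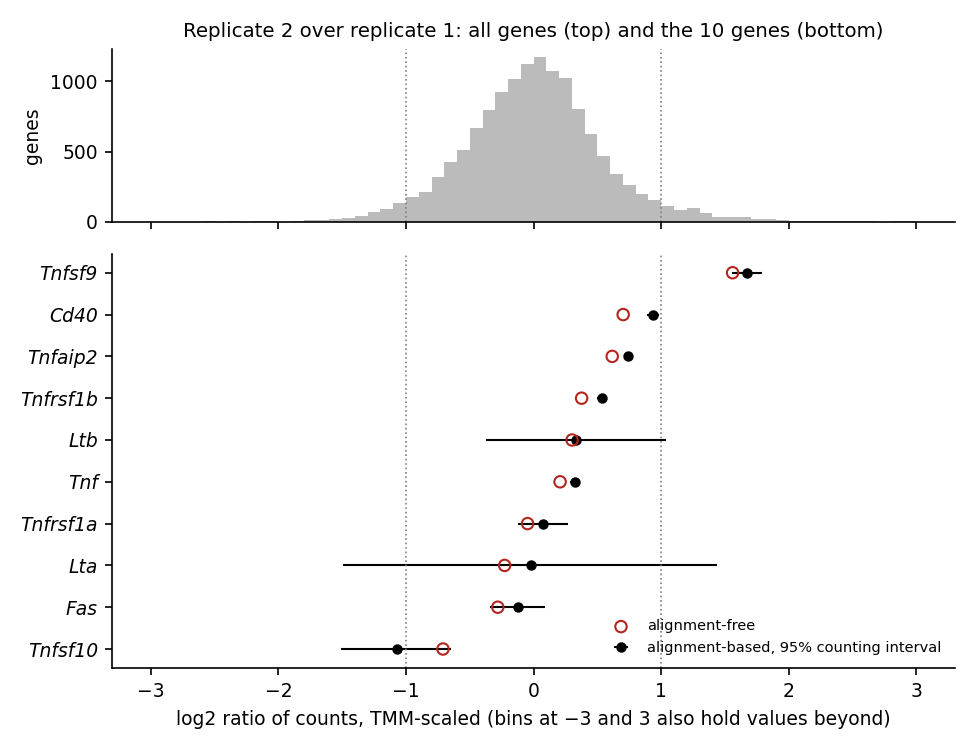
Top, number of genes by log2 ratio of replicate 2 over replicate 1 (TMM-scaled counts, 13247 genes). Bottom, the same ratio for the 10 genes with 95% counting intervals (filled) and by the alignment-free program (open), and dotted lines at 2-fold. Tnfsf9 at 1.67 and Tnfsf10 at -1.07 lie past the lines, and Tnfsf10 falls inside at -0.71 by the alignment-free program.

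Most of the remaining members of the family stayed below 1 TPM. Of 13 other ligands 3 reached 1 TPM in both libraries, and of 24 other receptors 7 did (12 by the alignment-free program), where 40.1% of protein-coding genes did. Of the ligands, Tnfsf15, which encodes TL1A, had 11.94 and 24.38 TPM. Tnfsf13, the gene of APRIL, had 3.53 and 3.56 TPM, and its neighbour Tnfsf12, the gene of TWEAK, 2.95 in both. Of the receptors, Tnfrsf14, which binds LIGHT and BTLA, had 103.24 and 39.84 TPM, Tnfrsf11a, the receptor of the osteoclast factor RANKL, 21.97 and 26.67, and Ltbr 6.8 and 15.08 from 170 and 153 counts. Tnfsf15 was higher (log2 ratio 1.02) and Tnfrsf14 lower (-1.26) in replicate 2. By other settings Tnfsf15 did not pass 2-fold (0.95 with total counts, 0.999 with median-of-ratios scaling and 0.79 by the alignment-free program), and Tnfrsf14 had -0.98 by the alignment-free program.

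The binding partners of the set were uneven, with genes named here after their values were seen. Cd40lg, the ligand of CD40, had 0 counts in both libraries, where 0 is compatible with as many as 3 counts (1.63e-05% of the counts in replicate 1, and 1.7e-05% in replicate 2). Fasl had 1 count in replicate 1 and 0 in replicate 2, and Tnfrsf9, the receptor of Tnfsf9, had 0 and 1. Tnfrsf10b, a mouse receptor of TRAIL, had 12 and 13 counts, or 0.25 and 0.3 TPM. By the alignment-free program Tnfrsf10b had 5.70 and 7.31 TPM. Each of the more abundant genes Cd40 and Tnfsf9 thus had a partner at 1 count or fewer in each library by the alignment-based program.

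Among the intracellular signalling genes behind the TNF receptors, all 20 reached 1 TPM in both libraries by both programs, with a median of 32.4 ± 4.02 TPM. The highest were Cflar, an inhibitor of caspase-8, at 379 ± 94.1 TPM, the adaptor Traf1 at 335 ± 61.4 and the ubiquitin ligase gene Birc3 at 218 ± 7.49. None of the 20 differed over 2-fold between the libraries. Fadd, the adaptor of death receptors, was lowest at 1.06 and 1.13 TPM.

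**Figure D5:**
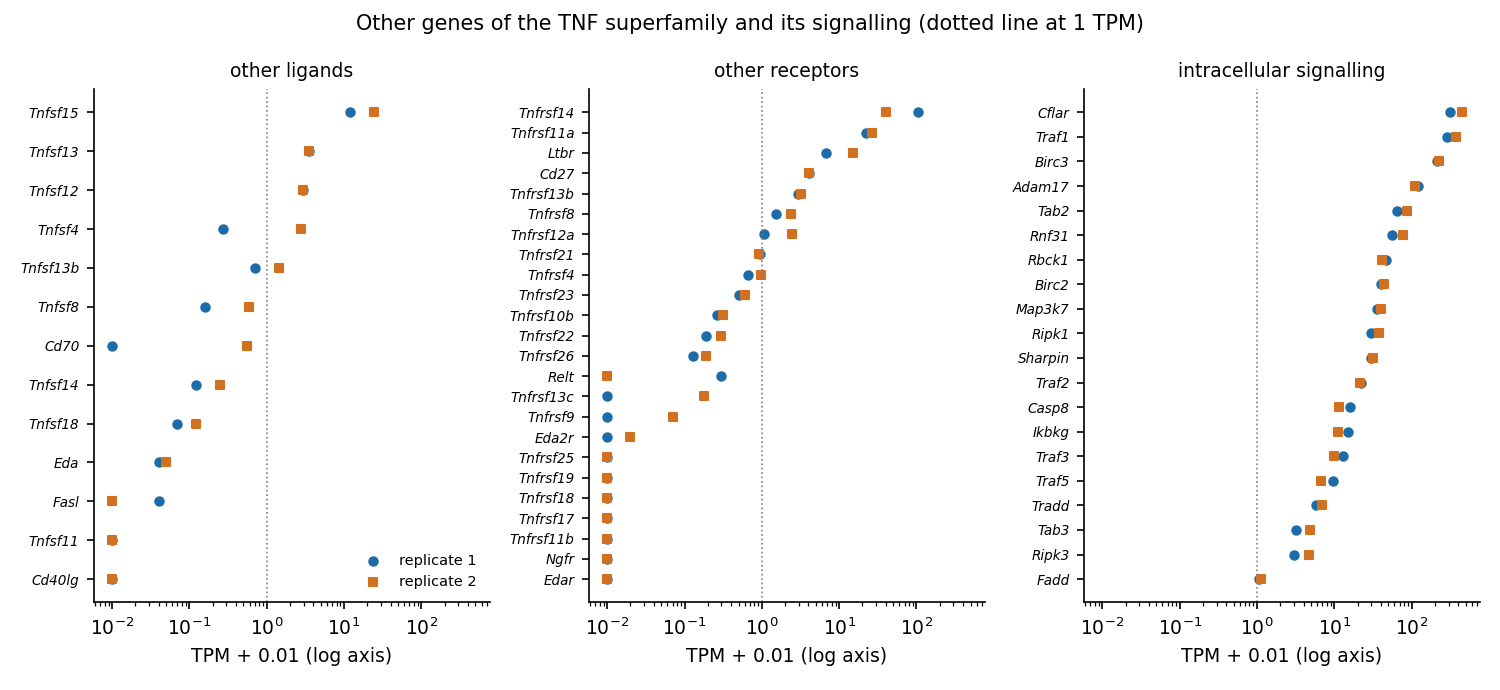
Levels (TPM + 0.01, log axis) of 13 other ligands, 24 other receptors and 20 intracellular signalling genes in replicate 1 (circles) and replicate 2 (squares), with a dotted line at 1 TPM. In both libraries 3 ligands, 7 receptors and all 20 signalling genes lie to the right of the line.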

How the data were processed

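The authors deposited, per library, expected counts and TPM per gene and transcript, made from alignments to the mm10 transcriptome with annotation M21, per the labels' description files. The column names are those RSEM writes, per the file headers. They also deposited estimated counts and TPM per transcript made from the reads without alignment, with kallisto's column names. The authors' TPM bounds (signal) were not used. The versions of both programs and the strand setting were not given. Alignment-free values were summed per gene. Entries without a gene in GENCODE M21 (26345, with 0.305% and 0.262% of counts) were left out of scaling and ratios. Counts were rounded and scaled by TMM (edgeR 4.0.16), with total counts and DESeq2 1.42.0 size factors as alternatives. The ratio step was tested on simulated data for replicate 2 over replicate 1 (13922 genes, biological variation 0.2). Of 200 genes given a 4-fold change, 170 had 10 counts in each library, and 98.8% of these were recovered. Of the others 3.48% passed 2-fold, fewer than the 7.29% in the real libraries, so the simulated spread was smaller than the real one. All 10 genes are named. Of each other list, the highest 3 by mean TPM and those past 2-fold at 100 counts in each library are named. Genes marked as named after their values were seen, lowest members and markers are exceptions. The genes and lists were chosen with earlier results of these data known. Promoters came from RefSeq (GRCm38.p6), with 8 of 10 genes matched, and exons from GENCODE M21. Protein identity was not computed here. Nothing was tested between conditions.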

Additional observations from a re-analysis of the deposited data

How the results depend on the processing

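No paired analysis was possible because there is 1 group and no comparison between groups. The order of the 10 genes by mean level was the same in 9 of 9 neighbouring pairs by the alignment-free program, the only alternative run for it, though in replicate 1 alone Tnf (387.82 TPM) lay above Cd40 (363.75 TPM). The number at 1 TPM was 7 to 10 over 6 alternatives, and 8 as reported. The median level of the set was 209.8 TPM with TPM over protein-coding genes alone, since that divides by a smaller sum, 95.3 TPM with the 9 genes of 10 counts in each library, 59.9 TPM by the alignment-free program, and 32.9 to 82.0 TPM when 1 library was left out. The other ligands and receptors at 1 TPM numbered 10, and 16 by the alignment-free program. The median protein-coding share of 93.6% became 97.7% by counts and 76.1% by the alignment-free program, and 92.9 to 94.3% without 1 library. The genes past 2-fold between the libraries numbered 2, and 1 with 100 counts in each library (Tnfsf10 had fewer), 1 by the alignment-free program and 4 at 1.5-fold. The cause of the differences between programs was not tested. Leaving out a library gives no ratio. Depth limits Lta, Ltb and Tnfsf10 most.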
